A study of Mus musculus with 36 samples.

Results

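Npy, Pmp22, Plpp3, Anpep, Bex1, Il7r, Met, Alcam, Chst11 and Ecm1 are 10 genes picked as lacking a usual role in macrophage polarization. That was not checked here against lists of M1 and M2 markers. The 10 genes were chosen by their measured values, as genes seen higher in Scnn1b-Tg than in WT lung macrophages after birth. The choice was out of 18820 genes that the array names with a single symbol. Each is read by 1 array feature that carries its symbol alone. Because the Tg minus WT differences after postnatal day (PND) 0 chose the genes, those differences are given as a description, with a standard error (SE) and no test. The SE of a gene rests on a spread pooled over all 10 groups of arrays. It does not follow the spread of the groups compared.

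The data are 36 single-colour microarrays of Ly-6G-depleted lung lavage cells from male mice of strain C57Bl/6N Tac. Tg mice overexpress Scnn1b, which encodes a subunit (beta) of an epithelial sodium channel, from a promoter of club cells of the airway lining, and WT mice are their littermates without it. There were 3 WT and 3 Tg arrays at PND 0, then 4 and 4 at PND 3, at PND 10 and at PND 42, all from a specific-pathogen-free (SPF) facility, and 3 and 3 at PND 42 from a germ-free (GF) facility. Each array up to PND 10 was a pool of 3 pups of 1 genotype, and each at PND 42 was a single mouse. The spread between arrays is thus one between pools in pups and one between mice in adults. Values are log2 intensities from 1.93 to 12.9, and the array medians lay between 3.72 and 4.06, so a mean no higher than that is called near background, and a fold against it can understate the difference. The files give no read depth, and the number of arrays limits the precision.

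The genes do unlike jobs. Npy encodes neuropeptide Y, a secreted peptide best known from neurons, and Ecm1 a secreted glycoprotein of the extracellular matrix. Il7r encodes the receptor chain shared by interleukin-7 and thymic stromal lymphopoietin, best known from lymphocytes, Met the receptor of hepatocyte growth factor, and Alcam (CD166) an immunoglobulin-type adhesion molecule that binds CD6. Anpep (CD13) is a cell-surface aminopeptidase of myeloid and epithelial cells, Plpp3 a membrane phosphatase that removes phosphate from lysophosphatidic acid and sphingosine 1-phosphate, and Chst11 a Golgi enzyme that sulfates chondroitin. Pmp22 is a small membrane protein of compact myelin that many other cells also make, and Bex1 a small intracellular protein studied in neurons and in regenerating tissue.

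The label of macrophages was borne out by the level of its markers after birth. The mean of 14 macrophage markers lay between 8.98 and 9.72 on the 30 arrays after PND 0, with Cd68 at 11.48 to 11.84 and Lyz2 at 11.95 to 12.07 as group means. Single markers of this list differed by genotype (limma, adjusted p). At PND 3, 0 of the 14 were higher and 3 lower in Tg, then 0 and 2 at PND 10, 2 and 2 in SPF adults and 1 and 1 in GF adults. The Siglecf mean at PND 3 was 7.86 (Tg) against 9.13 (WT). In SPF adults Fcgr1 averaged 6.53 (Tg) against 7.84 (WT), and Fabp4 8.73 against 7.01. Whether this bears on the 10 genes was not tested. The PND 0 pools also held a strong epithelial signal. The mean of 17 epithelial markers was 8.40 to 9.21 at PND 0 and 4.77 to 5.70 on all later arrays, with Krt8 at 9.31 in WT and 9.83 in Tg pools at PND 0 against 3.83 to 4.81 later. Of 12 fibroblast markers, 8 were higher in Tg than in WT pools at PND 0, and their mean was 7.03, 4.33 and 6.6 in the 3 Tg pools. Scnn1b itself was 4.06, 5.27 and 6.69 in the WT pools and 10.23, 10.33 and 5.47 in the Tg pools at PND 0, so Tg replicate 3 lay inside the WT range. At PND 3 it was still 5.37 to 6.03 in Tg against 3.09 to 3.55 in WT pools, and from PND 10 on it was 3.26 to 4.18 in Tg arrays. In bulk samples, fewer cells of a type and less RNA per cell cannot be told apart.

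The 10 genes shared a separation of the genotypes after birth and differed in how they reached it. At PND 0, none of the 10 had every Tg pool above every WT pool, against 4.21% of all 28940 features. At PND 3, 8 of 10 had every Tg array above every WT array (background 4.63%), the exceptions being Bex1 and Ecm1. At PND 10 it was 9 of 10 (background 4.17%), all but Bex1, and at PND 42 it was 10 of 10 in SPF mice (background 5.59%) and 10 of 10 in GF mice (background 9.21%). After PND 0 these counts restate how the genes were chosen. The median Tg minus WT difference of the 10 genes was 0.23 at birth, then 2.26 (PND 3), 2.16 (PND 10), 3.76 (SPF adults) and 3.38 (GF adults), where the median over all features lay between -0.025 and 0.014.

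**Figure D1:**
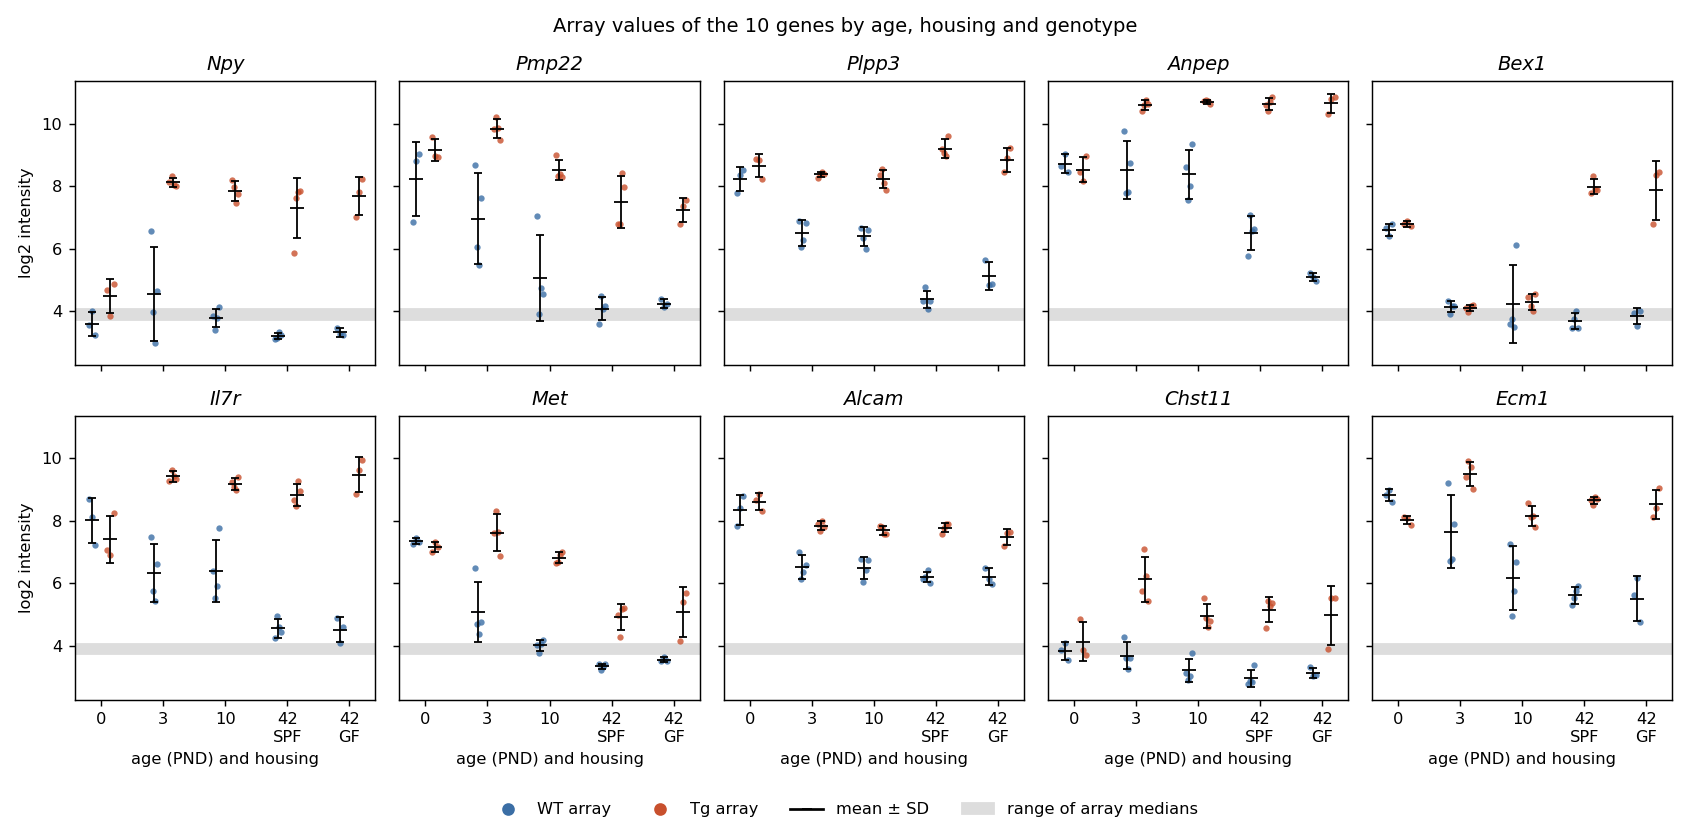
Log2 intensity (vertical axis) of the 10 genes in every array by age in postnatal days and housing (horizontal axis), WT in blue and Tg in orange. Black marks are group means ± SD (n = 3 or 4), and the grey band spans the array medians, 3.72 to 4.06. WT points of 8 genes start high at PND 0 and lie lower with age, while Tg points lie above them in adults, and Chst11 lies near the band in WT at every age, as does Npy but for PND 3.

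The PND 0 comparison was not used to choose the genes and could be tested. None of the 10 genes passed an adjusted p of 0.05 (limma over 28940 features, Benjamini-Hochberg) in a comparison where 2.74% of all features were called higher and 1.59% lower in Tg pools, and none of the 10 had an unadjusted p under 0.05 either, against 4895 features in all. Of the 10, 6 had a difference above 0, led by Pmp22 at 0.93 ± 0.65 (SE) and Npy at 0.88 ± 0.52. Ecm1 was the only one of the 10 whose genotypes did not overlap, with Tg below WT. The share of all features lying that way is not given here. The Ecm1 Tg pools read 8.11, 8.09 and 7.88 and the WT pools 8.83, 9.0 and 8.61. The difference was -0.78 ± 0.47 with an adjusted p of 0.439 (limma), and thus of the opposite sign to the later ages. The count stayed at 0 without Tg replicate 3.

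Of the secreted products, Npy had the largest step in Tg mice between PND 0 and PND 3. Its Tg pools read 4.69, 3.85 and 4.88 at PND 0 and 8.13, 8.32, 8.05 and 8.01 at PND 3. The WT pools at PND 3 read 6.56, 3.98, 2.98 and 4.64, all below the Tg pools, with replicate 1 far above the others. The Tg minus WT difference was 3.58 ± 0.45, or 12.0-fold, at PND 3 and 4.07 ± 0.45, or 16.7-fold, at PND 10. The pooled SE is the same at both ages, although the WT SD was 1.51 at PND 3 and 0.29 at PND 10.

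Npy then held its level into adult life. SPF adults read 5.88, 7.64, 7.82 and 7.86 in Tg and 3.10 to 3.34 in WT mice, a difference of 4.10 ± 0.45, and GF adults read 7.01, 7.82 and 8.22 against 3.23 to 3.48, a difference of 4.36 ± 0.52. The WT means of 3.20 and 3.32 were below every array median, so the folds of 17.1 and 20.6 can understate the difference. Within Tg mice the PND 42 minus PND 10 difference was -0.55 ± 0.45, a step within the spread between arrays.

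Ecm1, the other secreted product, started high. Its WT pools read 9.21, 6.70, 6.79 and 7.90 at PND 3, and the Tg pools 9.41, 9.90, 9.72 and 9.02, so WT replicate 1 alone reached into the Tg range. At PND 10 the WT pools read 4.97 to 7.27 and the Tg pools 7.80 to 8.57. SPF adults read 8.68, 8.51, 8.76 and 8.71 in Tg and 5.30, 5.51, 5.75 and 5.92 in WT mice, a difference of 3.04 ± 0.41 or 8.24-fold, and GF adults differed by 3.02 ± 0.47. The Tg mean was 8.03 at birth, 9.51 at PND 3, 8.16 at PND 10 and 8.66 in SPF adults. The SPF adult minus newborn difference was 0.64 ± 0.44 in Tg and -3.19 ± 0.44 in WT mice.

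Among the receptors, Il7r separated early and widened in adults. Its Tg arrays lay between 9.26 and 9.64 at PND 3, between 8.99 and 9.39 at PND 10, between 8.47 and 9.26 in SPF adults, and at 8.85, 9.62 and 9.94 in GF adults. The WT arrays read 7.48, 5.76, 5.43 and 6.62 at PND 3, then 6.4, 5.52, 5.90 and 7.78 at PND 10, and 4.24, 4.95, 4.6 and 4.45 in SPF adults. From PND 3 on the Tg arrays stayed between 8.47 and 9.94 while the WT level stepped down, so the difference went from 3.10 ± 0.40 at PND 3 and 2.78 ± 0.40 at PND 10 to 4.27 ± 0.40 in SPF and 4.96 ± 0.46 in GF adults, the last a 31.2-fold difference. The adult difference exceeded that at PND 10 by 1.5 ± 0.57.

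Il7r is also made by lymphocytes, and T cell and innate lymphoid markers were on average higher in Tg than in WT adults. The mean of 16 T cell and innate lymphoid markers was 4.27 to 4.8 in Tg and 3.90 to 4.24 in WT SPF adults, and 4.53 to 5.15 against 3.88 to 3.96 in GF adults, with 4 and 9 of the 16 markers higher and none lower in Tg. Cd3e, a defining chain of the T cell receptor complex, was at 4.75 in Tg and 3.63 in WT SPF adults, and Il2ra at 4.62 and 3.53. The Cd2 mean went the other way, at 10.09 and 10.58. Of 7 B cell markers, 0 were higher in SPF and 1 in GF adults, with none lower. At PND 3 and PND 10 Il7r differed by 8.56-fold and 6.85-fold. The same 16 markers averaged 3.71 to 3.96 in Tg and 3.72 to 3.89 in WT arrays at these ages. Of them 1 was higher and 1 lower at PND 3 and 1 lower at PND 10. Cd3e was near background in all 4 groups at 3.26 to 3.39. Cd2, which is among the 16, was far from background, with means of 7.61 to 9.78 in these 4 groups. The part of lymphocytes in the Il7r level was not tested at any age.

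Met had the steepest decline in Tg mice after PND 3. Its Tg arrays read 7.62, 8.31, 7.64 and 6.86 at PND 3, then 6.66, 6.68, 6.90 and 7.01 at PND 10, and 4.99, 4.29, 5.18 and 5.20 in SPF adults. Its WT arrays read 6.48, 4.69, 4.37 and 4.75 at PND 3, then 3.77 to 4.19 at PND 10 and 3.23 to 3.41 in SPF adults. From PND 3 on, both genotypes were lower at each age than at the one before, and the Tg difference of SPF adults from PND 10 was -1.90 ± 0.32. The Tg minus WT difference was 2.54 ± 0.32 at PND 3, 2.80 ± 0.32 at PND 10, 1.58 ± 0.32 in SPF adults and 1.53 ± 0.37 in GF adults, where Tg replicate 1 read 4.16 and the other 2 Tg mice 5.40 and 5.68. WT means were near background from PND 10 on, so the later folds of 6.95, 2.98 and 2.89 can understate the difference.

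Alcam, the adhesion molecule, had the smallest difference at PND 3 of the 8 genes that separated then, and it stayed of like size. Its Tg arrays lay between 7.67 and 8.0 at PND 3, between 7.57 and 7.84 at PND 10 and between 7.59 and 7.90 in SPF adults, while its WT arrays lay between 6.13 and 7.0, between 6.03 and 6.77 and between 6.02 and 6.42. The difference was 1.32 ± 0.19, 1.21 ± 0.19 and 1.59 ± 0.19 in turn, and 1.27 ± 0.21 in GF adults, that is 2.31-fold to 3.00-fold at every age after birth.

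Of the enzymes, Anpep held a nearly fixed level in Tg mice. Its Tg group means were 10.60 at PND 3, 10.71 at PND 10, 10.64 in SPF and 10.65 in GF adults, all 15 arrays lying between 10.30 and 10.87. The WT arrays read 9.76, 7.78, 7.83 and 8.74 at PND 3, then 8.62, 7.56, 8.0 and 9.34 at PND 10, then 5.77, 7.07, 6.55 and 6.62 in SPF adults and 5.22, 5.11 and 4.95 in GF adults. The spread between WT pools was far wider than between Tg pools at PND 3 (SD 0.93 against 0.15) and PND 10 (SD 0.78 against 0.06). The difference was 2.08 ± 0.33 and 2.33 ± 0.33 in pups, 4.13 ± 0.33 in SPF adults and 5.56 ± 0.38, or 47.2-fold, in GF adults, the largest of the 10 genes.

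Plpp3 was further apart in adults than in pups in both directions, higher in Tg and lower in WT mice. Its Tg arrays lay between 8.26 and 8.47 at PND 3, between 7.88 and 8.56 at PND 10 and at 9.18, 9.05, 8.96 and 9.62 in SPF adults, where the mean was 0.98 ± 0.23 higher than at PND 10. Its WT arrays lay between 6.04 and 6.90, between 5.99 and 6.66 and at 4.33, 4.77, 4.08 and 4.32 at the same ages. The difference was 1.87 ± 0.23 at PND 3 and 1.83 ± 0.23 at PND 10, then 4.83 ± 0.23, or 28.4-fold, in SPF adults, and 3.73 ± 0.26 in GF adults. It exceeded that at PND 10 by 3.00 ± 0.32.

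Chst11 was near background in every WT group. Its Tg arrays read 4.84, 3.86 and 3.69 at PND 0 and 5.74, 7.09, 6.22 and 5.43 at PND 3, then 5.51, 4.87, 4.6 and 4.8 at PND 10. SPF Tg adults read 4.56, 5.43, 5.25 and 5.35, and GF Tg adults 3.89, 5.51 and 5.53, so 1 GF mouse was itself near background although above all 3 WT mice at 3.02 to 3.31. The difference was 2.44 ± 0.33 at PND 3, 1.74 ± 0.33 at PND 10, 2.19 ± 0.33 in SPF and 1.85 ± 0.39 in GF adults.

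Pmp22 kept its difference from PND 3 on while both genotypes read lower with age. Its Tg arrays lay between 9.47 and 10.22 at PND 3, between 8.31 and 8.99 at PND 10, between 6.79 and 8.42 in SPF adults and between 6.80 and 7.55 in GF adults. The WT pools read 8.69, 6.07, 5.48 and 7.61 at PND 3 and 7.04, 3.92, 4.73 and 4.54 at PND 10, a spread of more than 3 log2 units within each age, and the adults lay between 3.60 and 4.47. The difference was 2.89 ± 0.56, 3.45 ± 0.56, 3.42 ± 0.56 and 2.99 ± 0.65 in turn, or 7.39-fold to 10.95-fold.

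Bex1 separated without overlap in adults alone. At birth it was present in both genotypes, at 6.65, 6.41 and 6.78 in WT and 6.79, 6.90 and 6.72 in Tg pools. At PND 3 all 8 arrays lay between 3.90 and 4.33, and at PND 10 the Tg pools read 4.45, 4.18, 4.00 and 4.56 and the WT pools 3.60, 3.75, 3.5 and 6.12, so the Tg pools lay above all WT pools but replicate 4. In SPF adults the Tg mice read 7.80, 8.33, 7.91 and 7.89 and the WT mice 3.47, 3.75, 4.01 and 3.47, with no overlap.

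The Bex1 difference was thus -0.03 ± 0.36 at PND 3 and 0.06 ± 0.36 at PND 10 but 4.31 ± 0.36, or 19.8-fold, in SPF and 4.04 ± 0.41, or 16.4-fold, in GF adults, against WT means near background. The PND 10 value rests on 1 pool, as it was 0.68 without WT replicate 4. The adult Tg mean stood 1.18 ± 0.39 above that of Tg pools at birth. A second feature, annotated to both Bex4 and Bex1 and so not used for the choice, read 4.68 to 5.22 in Tg and 2.98 to 3.27 in WT SPF adults, and 7.13 to 8.95 in both genotypes at birth. The array cannot divide signal between members of this family where their sequences are shared.

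**Figure D2:**
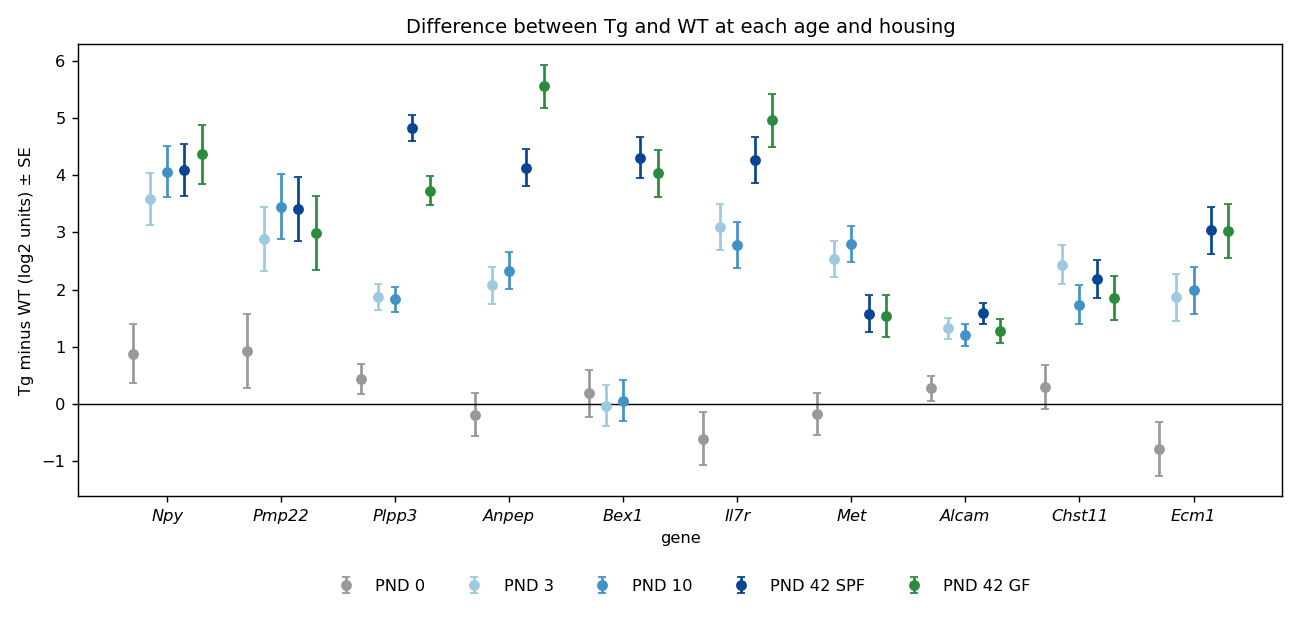
Tg minus WT difference in log2 units (vertical axis, mean ± SE from limma) for each of the 10 genes (horizontal axis) at PND 0, 3 and 10 and in adults of SPF and GF housing. Each SE rests on a spread pooled over all groups. Grey PND 0 points lie between -0.78 and 0.93, Bex1 lies at -0.03 at PND 3 and 0.06 at PND 10 (0.68 there without WT replicate 4), and Plpp3, Anpep and Il7r are further apart in adults than in pups, whereas Met is closer.

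The starts of 4 genes are shown because their courses differed most in time or because they share a motif. Sequences are RefSeq promoter windows of GRCm38.p6, the 250 bases before the annotated start, with matches to the motifs named below in capitals. Npy, higher in Tg pools from PND 3, lies at chr6:49822460-49822709 on the plus strand, and Bex1, without overlap in adults alone, at chrX:136215514-136215763 on the minus strand. Met, at chr6:17463707-17463956 on the plus strand, and Ecm1, at chr3:95739570-95739819 on the minus strand, carry the AP-1 letters. The annotated starts of Met and Ecm1 lie 608 and 307 bases inside the outer edge of the gene, so their windows are not the outermost ones. All 10 genes had a window.
Npy: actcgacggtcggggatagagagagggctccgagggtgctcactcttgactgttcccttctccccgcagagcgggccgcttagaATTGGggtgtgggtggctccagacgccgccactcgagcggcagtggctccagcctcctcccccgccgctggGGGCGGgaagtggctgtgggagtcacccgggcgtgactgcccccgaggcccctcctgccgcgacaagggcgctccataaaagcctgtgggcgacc
Bex1: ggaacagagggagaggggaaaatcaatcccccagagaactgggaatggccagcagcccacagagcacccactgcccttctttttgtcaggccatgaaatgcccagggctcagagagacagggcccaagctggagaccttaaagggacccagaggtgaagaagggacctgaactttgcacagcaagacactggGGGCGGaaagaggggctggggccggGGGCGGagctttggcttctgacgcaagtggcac
Met: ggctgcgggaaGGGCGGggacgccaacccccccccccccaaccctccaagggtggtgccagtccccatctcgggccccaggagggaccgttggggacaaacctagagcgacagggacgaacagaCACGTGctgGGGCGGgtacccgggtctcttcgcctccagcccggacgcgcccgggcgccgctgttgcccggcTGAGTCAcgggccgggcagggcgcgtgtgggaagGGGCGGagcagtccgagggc
Ecm1: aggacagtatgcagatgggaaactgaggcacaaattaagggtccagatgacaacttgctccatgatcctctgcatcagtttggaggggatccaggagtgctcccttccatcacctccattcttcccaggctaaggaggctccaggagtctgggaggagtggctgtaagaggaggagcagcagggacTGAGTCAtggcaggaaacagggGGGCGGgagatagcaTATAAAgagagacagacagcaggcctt

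On both strands, 9 motifs were searched: AP-1 as TGANTCA, the cAMP response element as TGACGTCA, STAT as TTCNNNGAA, the E-box as CACGTG, the GC box as GGGCGG, the TATA motif as TATAAA, the NF-Y motif as CCAAT, PU.1 as GAGGAA and C/EBP as TTGCNNAA. The GC box was in 7 of the 10 windows and in 32.7% of 32851 windows of the same length, and the NF-Y motif in 4 of 10 and 33.8%. The AP-1 letters were in Met, from position -54 counted from its start, and Ecm1, from position -64, and in 6.75% of all windows. The E-box was in Met alone, the TATA motif in Ecm1 alone, the STAT and C/EBP letters in Il7r alone, the PU.1 letters in Alcam alone and the cAMP response element in none. A match is a run of letters and does not show that a factor binds there.

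In WT mice the question was how the 10 genes change from birth. The WT arrays after PND 0 entered the comparison that chose the genes, so the WT steps are not independent of that choice and are given as a description, with no test. At PND 3 the WT mean stood below that at birth by more than its SE for 7 of the 10 genes. The log2 values were -2.48 ± 0.39 for Bex1, -2.27 ± 0.35 for Met, -1.82 ± 0.20 for Alcam, -1.71 ± 0.24 for Plpp3, -1.69 ± 0.43 for Il7r, -1.27 ± 0.61 for Pmp22 and -1.16 ± 0.44 for Ecm1. Npy stood at 0.95 ± 0.49, and Anpep and Chst11 at -0.19 ± 0.35 and -0.15 ± 0.36. The pool that read highest for all 10 genes at this age was WT replicate 1, and without it Pmp22 was at -1.84 and Ecm1 at -1.68. The Pmp22 value was -1.96 without WT PND 0 replicate 1 and -0.78 without WT PND 3 replicate 3.

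Markers of other cell types moved over the same step. Of the 17 epithelial markers, which did not enter the choice, 16 fell (limma, adjusted p), where 12.0% of all features did, with a median of -2.89, and 9 of the 12 fibroblast markers fell, with a median of -1.14. Several of the 10 genes are also made by epithelial cells or fibroblasts. Their part in the PND 0 levels was not tested.

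From PND 3 to PND 10 the WT mean was lower for Pmp22 (-1.90 ± 0.56), Ecm1 (-1.48 ± 0.41) and Met (-1.06 ± 0.32), and for the other 7 genes the value lay between -0.76 and 0.10. Without WT PND 3 replicate 1, the Ecm1 value was -0.96 and the Met value -0.59.

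From PND 10 to PND 42 in SPF WT mice, Plpp3 stood at -2.03 ± 0.23, Anpep at -1.88 ± 0.33 and Il7r at -1.84 ± 0.40, and the other 7 genes between -0.98 and -0.25. The epithelial marker mean was 4.97 and 4.98 at these ages, but single markers went both ways, with 3 of 17 higher and 2 lower. Epcam averaged 4.41 and then 6.77, and Hopx 5.80 and then 4.29. The part of epithelial cells in this step was not tested.

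Seen from birth to adult life, every SPF WT adult lay below every WT newborn pool for 9 of the 10 genes, all but Npy (background 13.6%), a count that the choice of the genes can also move. The 8 genes that were above background in both genotypes at birth had adult minus newborn WT differences from -2.15 ± 0.20 (Alcam) to -4.15 ± 0.61 (Pmp22).

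**Figure D3:**
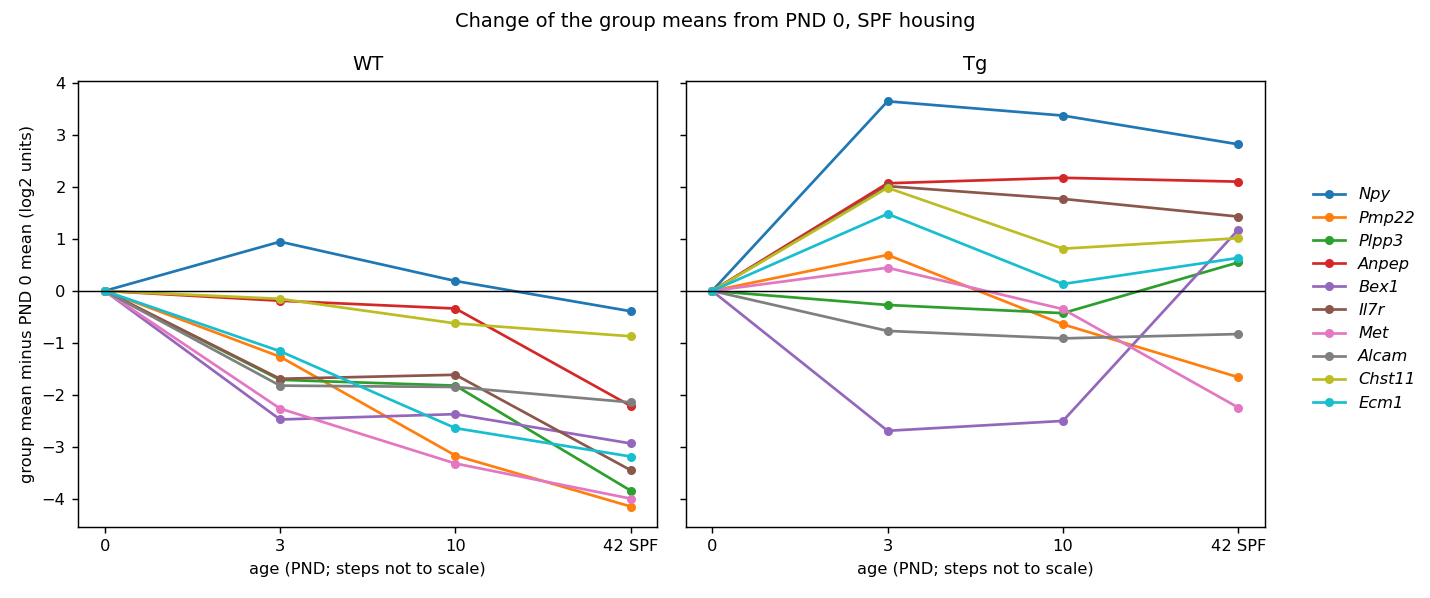
Group mean minus the PND 0 mean of the same genotype (vertical axis, log2 units) by age in SPF mice (horizontal axis, steps not to scale), WT left and Tg right, 1 line per gene. In WT mice the lines end between -4.15 (Pmp22) and -0.39 (Npy), while in Tg mice the adult values run from -2.25 (Met) to 2.82 (Npy).

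The Tg course is given as a description. From PND 0 to PND 3 the Tg mean was higher by 3.65 ± 0.49 for Npy, 2.07 ± 0.35 for Anpep, 2.02 ± 0.43 for Il7r, 1.99 ± 0.36 for Chst11 and 1.48 ± 0.44 for Ecm1. It moved by 0.69 ± 0.61 for Pmp22, 0.45 ± 0.35 for Met and -0.27 ± 0.24 for Plpp3. It was lower for Alcam (-0.77 ± 0.20) and for Bex1 (-2.69 ± 0.39), the latter as in WT mice.

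Housing made no difference that passed for any of the 10 genes. The adult arrays of both housings entered the choice of the genes, so the housing tests are not independent of it. In Tg adults 0 of 10 passed GF against SPF, where 0.0760% of all features were called higher and 0.0657% lower, and 0 of 10 had an unadjusted p under 0.05, against 2250 features in all. The Tg values ran from -0.35 ± 0.24 (Plpp3) to 0.64 ± 0.43 (Il7r). In WT adults 0 of 10 passed as well, where 0.0104% were called higher and 0.0553% lower, and 2 had an unadjusted p under 0.05, against 1306 features in all.

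Those 2 were Anpep and Plpp3. Anpep read 5.22, 5.11 and 4.95 in GF and 5.77 to 7.07 in SPF WT mice, a value of -1.41 ± 0.35 (adjusted p = 0.254, limma). Plpp3 read 5.65, 4.85 and 4.86 in GF and 4.08 to 4.77 in SPF WT mice, a value of 0.75 ± 0.24 (adjusted p = 0.652, limma). The groups did not overlap for either gene, nor for Met, which differed by only 0.21 ± 0.35. The share of all features without overlap between housings is not given here. The genotype difference was accordingly larger in GF than in SPF mice by 1.43 ± 0.50 for Anpep and smaller for Plpp3 (-1.10 ± 0.34), and for the other 8 genes it differed by -0.42 to 0.69, close to or under its SE. With 3 GF arrays a genotype, the SE of a housing difference was 0.20 to 0.61.

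In the GF Tg group the 3 mice kept 1 order. Replicate 1 was the lowest for 10 of 10 genes and replicate 3 the highest for 10 of 10, as with Bex1 at 6.78 and 8.45 and Met at 4.16 and 5.68. Replicate 3 also had the highest T cell and innate lymphoid (5.15) and dendritic cell (5.29) marker means of the group, against 4.54 and 4.53 in replicate 1. It had the highest neutrophil (6.21), eosinophil, basophil and mast cell (4.45) and endothelial (4.08) means, while its macrophage mean was the lowest (9.47 against 9.70). Not all lists kept the order. The neutrophil mean was 5.96 in replicate 1 and 5.51 in replicate 2, and the eosinophil, basophil and mast cell mean 3.995 and 3.561. The B cell mean was highest in replicate 1 (3.61). The part of these cells in the order was not tested. Every Tg minus WT difference kept its direction without either mouse.

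Dendritic cell markers were higher in Tg adults, beside all 10 genes. Their mean over 10 genes was 4.42 to 4.84 in Tg and 4.01 to 4.11 in WT SPF adults, and 4.53 to 5.29 against 3.81 to 4.16 in GF adults, with 6 and 4 of the 10 markers higher in Tg and none lower. Ccr7 was at 6.39 in Tg and 5.45 in WT SPF adults and Flt3 at 4.09 and 3.5. At PND 3, neutrophil markers averaged 5.98 to 6.89 in Tg and 5.36 to 5.92 in WT pools, with 2 of 11 higher, and S100a9 at 11.11 against 8.11. In adults 2 of the 11 were higher and 1 lower in SPF mice, and 3 and 1 in GF mice. Csf3r averaged 5.97 in Tg and 7.48 in WT SPF adults. The part of these cells in the 10 genes was not tested, and both dendritic cell means at PND 3 were 3.52. In GF adults Ccr3 and Prg2, both made by eosinophils, averaged 6.03 and 6.58 in Tg against 3.15 and 2.90 in WT mice, with 2 of 10 eosinophil, basophil and mast cell markers higher in Tg, and their part was not tested either.

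**Figure D4:**
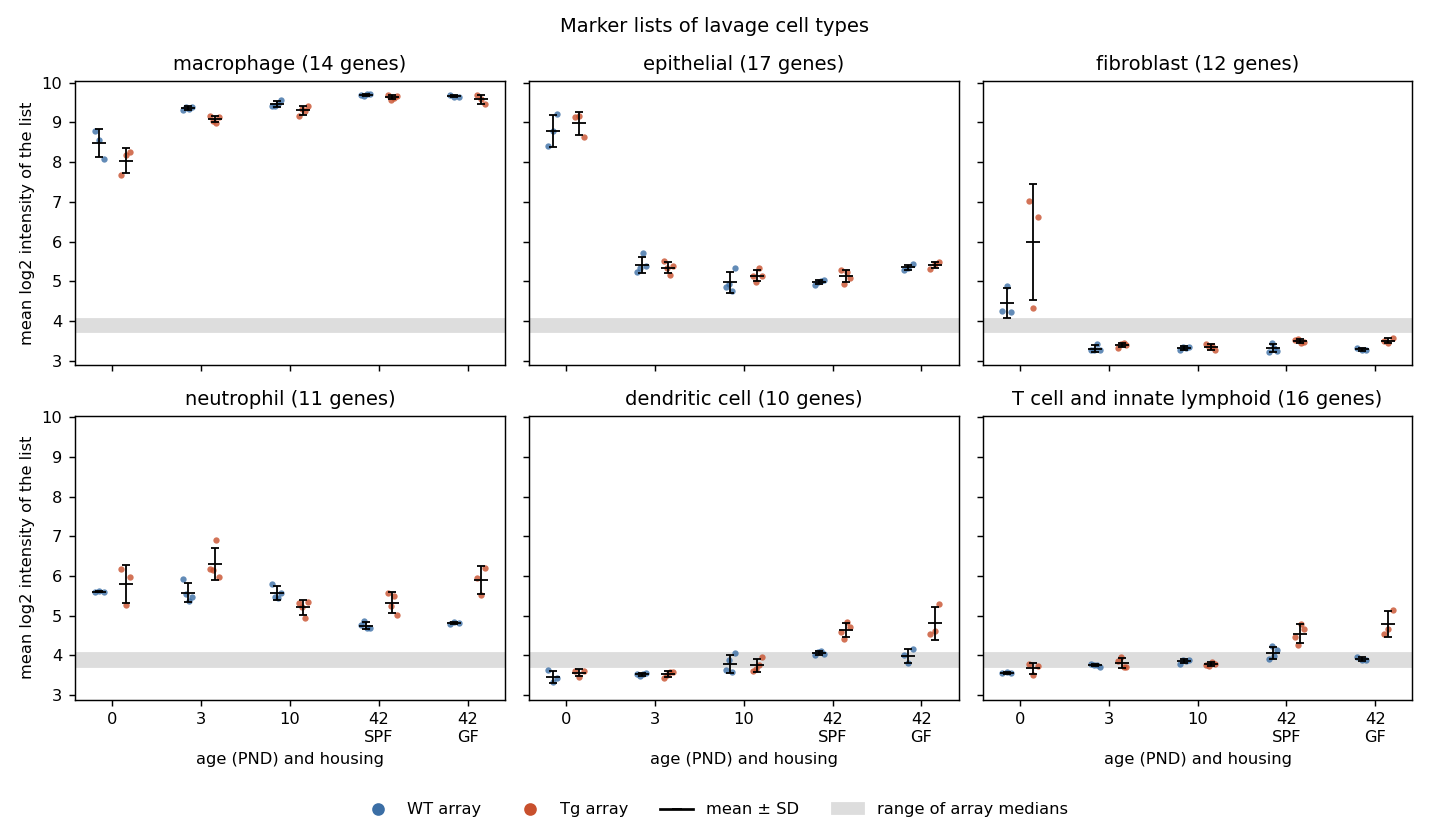
Mean log2 intensity of 6 marker lists (vertical axis, number of genes in each title) in every array by age and housing (horizontal axis), WT in blue and Tg in orange, with group means ± SD in black and the range of array medians in grey. Epithelial markers lie above 8.40 at PND 0 alone, and the means of the T cell, dendritic cell and neutrophil lists are higher in Tg adults. Single neutrophil markers went both ways there.

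Several of the 10 genes had close companions over the 30 arrays after PND 0. The companions are given with Pearson's r as a description, out of 17632 genes compared. The arrays span both genotypes and 3 ages, and each r includes those differences. The 10 genes were chosen for a shared pattern, so an r between members in part restates that choice. For Npy they were Inhba (r = 0.991), the activin A subunit, and Cstb (r = 0.977), a cathepsin inhibitor. Inhba averaged 9.61 in Tg and 5.23 in WT pups at PND 3 and 8.27 and 3.38 in SPF adults.

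For Bex1 they were Rbp4 (r = 0.975), the plasma retinol carrier, and Lhx2 (r = 0.951), a homeodomain factor. Rbp4 averaged 3.43 in Tg and 3.42 in WT pups at PND 3 and 9.12 and 3.56 in SPF adults, so it too separated in adults. The WT PND 10 pool with Bex1 at 6.12 had Rbp4 at 6.10 and Lhx2 at 4.04, where the other 3 pools lay at 3.38 to 3.71 and 2.83 to 3.31. That pool and the adults are among the arrays that gave r, so these likenesses are part of how the companions were picked.

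Anpep and Il7r were each close to the other (r = 0.965) and to Arhgap10 (r = 0.957 and 0.970), and Il7r also to P2rx4 (r = 0.968), an ATP-gated channel. Plpp3 went with Mfge8 (r = 0.974), a bridge between dying cells and phagocytes, and Fstl1 (r = 0.964). Met went with Malt1 (r = 0.965) and Mmp14 (r = 0.961), a membrane-bound collagenase. Alcam went with Npy and Inhba (both r = 0.959).

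Pmp22 went with Slc11a1 (r = 0.953), a metal transporter of phagosomes, and Igf2r (r = 0.950), which Ecm1 also had (r = 0.946) beside Slc37a2 (r = 0.938). Chst11 went with Fmnl2 (r = 0.958) and Ppp1r15a (r = 0.944).

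Ligands and partners of the 10 genes were read from lists of 162 related genes, of which 150 were measured. Of these 150, 10 were higher and 1 lower in Tg pools at PND 0, with 15 and 7 at PND 3 (background 2.17% and 1.87%), 4 and 0 at PND 10 (background 1.13% and 0.435%), 15 and 10 in SPF adults (background 2.72% and 1.77%) and 22 and 9 in GF adults (background 3.14% and 1.77%). The PND 0 count of 11 was 3 when Tg replicate 1 was left out, 20 when it was Tg replicate 2 and 25 when it was WT replicate 3, and the GF count of 31 was 16 without Tg replicate 3. The median difference of the 150 was between 0.025 and 0.084 in the 5 comparisons. All tests of related genes are limma with adjusted p over all features.

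The ligands gave little signal in lavage cells. Il7 group means were 3.19 to 3.60 and Tslp means 2.83 to 3.19, near background, and so were Npy1r (3.08 to 3.53), the Y1 receptor, and Cd6 (3.20 to 3.56), and none of these 4 passed in any comparison. Crlf2, the chain that pairs with IL-7R alpha for thymic stromal lymphopoietin, was above background at 4.85 to 6.22 and did not pass in any. Hgf, the ligand of MET, was lower in Tg SPF adults at -0.74 ± 0.20 (adjusted p = 0.0252) and at -0.01 ± 0.23 in GF adults, and whether the housings differ in this was not tested. Il2rg was not analysed here.

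In the IL-7 receptor list of 14 measured genes, Socs3, a feedback inhibitor of cytokine receptors, was higher in Tg arrays at each age after birth. It was higher by 2.49 ± 0.28 at PND 3 (adjusted p = 1.09e-06), 1.20 ± 0.28 at PND 10 (adjusted p = 0.0206), 1.37 ± 0.28 in SPF adults (adjusted p = 0.00245) and 1.52 ± 0.33 in GF adults (adjusted p = 0.00372). Bcl2, a survival factor, was higher in adults alone, by 1.17 ± 0.27 in SPF (adjusted p = 0.00765) and 1.26 ± 0.32 in GF mice (adjusted p = 0.0142). Pim1 was higher by 0.82 ± 0.24 in SPF adults (adjusted p = 0.0418). In all, 3 genes of the list were higher and none lower in each adult comparison, and 1 was higher and 2 lower at PND 3.

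In the MET list of 17 genes, a protease that processes the ligand and its inhibitor went opposite ways. St14 (matriptase) was higher by 1.17 ± 0.19 in SPF adults (adjusted p = 0.000126) and 1.00 ± 0.22 in GF adults (adjusted p = 0.00469). Spint1, an inhibitor of St14 and of the hepatocyte growth factor activator, was lower, at -0.92 ± 0.23 at PND 3 (adjusted p = 0.0165), -1.20 ± 0.23 in SPF adults (adjusted p = 0.00103) and -0.99 ± 0.27 in GF adults (adjusted p = 0.0245). Gab1, a MET adaptor, was at -0.75 ± 0.22 in SPF adults (adjusted p = 0.0442).

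Of 20 genes that handle lysophospholipids and sphingosine 1-phosphate, 4 were higher and 1 lower at PND 3, 3 and 0 in SPF adults and 4 and 0 in GF adults. S1pr1, a receptor of sphingosine 1-phosphate, was higher by 1.92 ± 0.30 at PND 3 (adjusted p = 8.11e-05) and Sphk1, a kinase that makes it, by 0.99 ± 0.17 (adjusted p = 0.000428). Plpp1, a relative of Plpp3, was higher by 1.05 ± 0.21 in GF adults (adjusted p = 0.00135).

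In the chondroitin lists, Papss2, which makes the sulfate donor, was higher by 1.52 ± 0.35 at PND 3 (adjusted p = 0.00733), 2.57 ± 0.35 in SPF adults (adjusted p = 7.48e-06) and 2.23 ± 0.40 in GF adults (adjusted p = 0.000505). Chsy1, which builds the chain, was lower, at -0.84 ± 0.14 in SPF adults (adjusted p = 0.000114) and -0.80 ± 0.16 in GF adults (adjusted p = 0.00131). In all, 2 of the 23 synthesis genes were higher and 1 lower at PND 3, and 1 and 1 in SPF adults.

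Of the 13 proteoglycans 4 were higher at PND 3 and 3 in each adult comparison, with none lower. Sdc1 was higher by 2.04 ± 0.25 at PND 3 (adjusted p = 3.89e-06) and 1.35 ± 0.25 at PND 10 (adjusted p = 0.00208), and Cspg4 by 1.63 ± 0.23 in SPF (adjusted p = 1.06e-05) and 1.84 ± 0.26 in GF adults (adjusted p = 1.77e-05). Dcn, also a fibroblast marker, was higher by 2.01 ± 0.57 at PND 0 alone (adjusted p = 0.0408).

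Among 13 membrane peptidases, Ece1, the endothelin-converting enzyme, was higher in adults, by 2.37 ± 0.21 in SPF (adjusted p = 5.33e-09) and 1.84 ± 0.24 in GF mice (adjusted p = 6.35e-06). Cpm was higher by 1.37 ± 0.24 at PND 0 (adjusted p = 0.000876) and Dpp4, which also trims neuropeptide Y, by 0.77 ± 0.19 (adjusted p = 0.0161). These PND 0 calls stood beside the higher fibroblast markers of the Tg pools. Of the NPY list of 8 genes, Npy2r was lower at PND 0, at -0.65 ± 0.18 (adjusted p = 0.0357), between means of 2.91 and 3.55 that are near background.

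Among 14 adhesion molecules, Bcam was higher by 1.78 ± 0.34 in SPF (adjusted p = 0.000889) and 2.43 ± 0.39 in GF adults (adjusted p = 0.000106). Mcam was lower, at -1.48 ± 0.24 at PND 3 (adjusted p = 0.000145), -1.09 ± 0.24 in SPF adults (adjusted p = 0.00409) and -1.97 ± 0.28 in GF adults (adjusted p = 1.50e-05). Pecam1 was higher by 2.30 ± 0.34 in GF adults (adjusted p = 3.77e-05). Adhesion molecules of this kind thus went both ways, 1 higher and 3 lower in SPF adults.

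Among 11 matrix genes, Thbs1, a thrombospondin, was higher by 4.68 ± 0.53 at PND 3 (adjusted p = 9.83e-07) and 2.54 ± 0.61 in GF adults (adjusted p = 0.00945), and Mmp9, which binds ECM1, by 1.95 ± 0.34 at PND 3 (adjusted p = 0.000334). Hspg2 was higher by 1.22 ± 0.19 at PND 0 (adjusted p = 0.000168). Of 10 relatives and partners of PMP22, Perp was lower, at -1.15 ± 0.18 in SPF (adjusted p = 9.71e-05) and -0.81 ± 0.21 in GF adults (adjusted p = 0.0199), and so was Itga6, at -0.90 ± 0.18 (adjusted p = 0.00137) and -0.68 ± 0.20 (adjusted p = 0.0467). Emp1 was higher by 0.99 ± 0.22 at PND 3 (adjusted p = 0.0047). Of 9 relatives of Bex1, Tceal9 alone passed, higher by 0.77 ± 0.19 in SPF (adjusted p = 0.0114) and 1.00 ± 0.22 in GF adults (adjusted p = 0.0039).

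**Figure D5:**
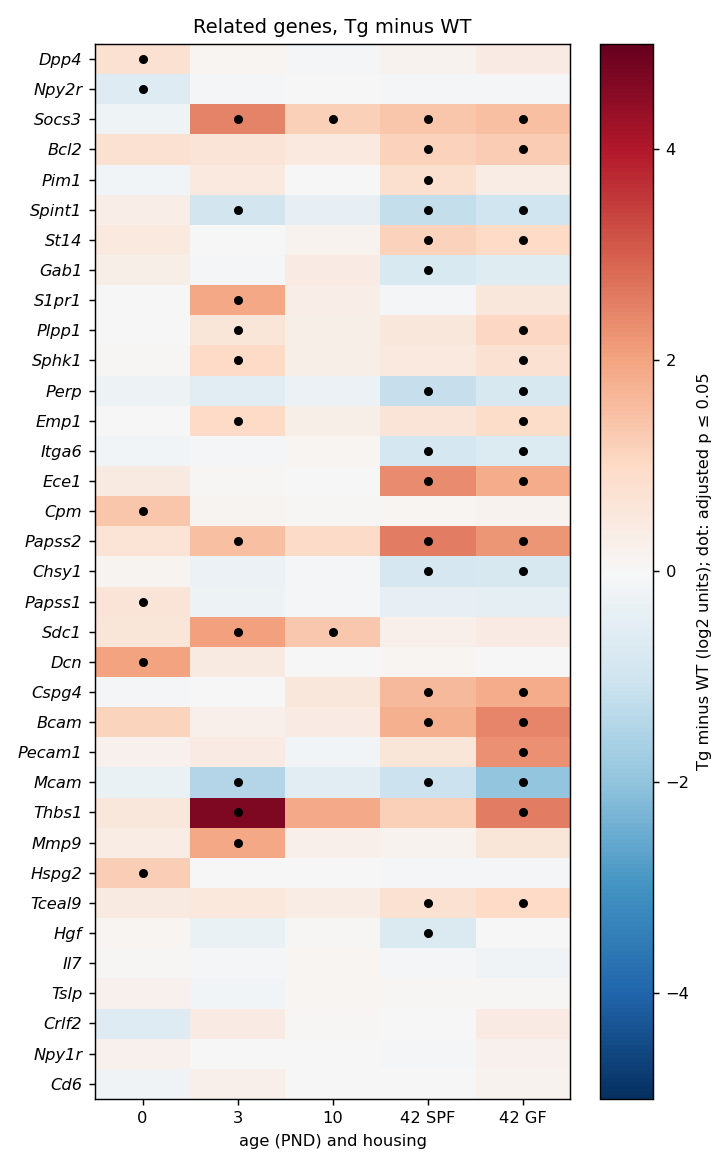
Tg minus WT difference (colour, log2 units from -5 to 5) of the named related genes (rows) at each age and housing (columns). Dots mark an adjusted p of 0.05 or less. Socs3 is higher at each age after PND 0, Thbs1 reaches 4.68 at PND 3, and St14, Cspg4 and Ece1 are marked in adults alone.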

How the data were processed

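The authors hybridised amplified RNA to 36 whole-transcript mouse arrays and deposited 1 table of log2 values, made per the labels with Partek 6.5 and RMA (background correction, quantile normalization and median polish, with adjustment for GC content and probe sequence). Of 35556 features, 28940 were analysed here and 6616 without annotation were left out. Groups came from the labels. A limma fit of 10 group means over all 36 arrays (limma 3.58.1, R 4.3.3) gave each difference and SE, with Benjamini-Hochberg adjustment over 28940 features and calls at 0.05. Replicates up to PND 10 were pools and later single mice. The script was tested on simulated data.

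The members and lists were chosen with earlier results of these data known. The WT age steps of the members, planned as tests, are described without one, a choice made after seeing the data, since their arrays entered the choice. The housing tests of the members were kept, though their adult arrays entered the choice too. Beside the members, the text names their 2 closest genes by Pearson's r, up to 3 called genes of each related list with the largest change, ligands and receptors of members, and defining markers. Promoter windows are from RefSeq (GRCm38.p6). Array design and probe sequences were not used here. Alternatives covered normalization, weights, filters, the fit's groups, a replicate block and leaving out each array. Same-numbered arrays did not deviate together (r from -0.126 to 0.244 over 18 pairs, 1 above 0.1), so the numbers were not taken as pairs.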

Additional observations from a re-analysis of the deposited data

Results flagged for a closer look

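In 5 of 60 groups of 4 arrays, 1 array of the 10 genes stood far from the other 3, and chance alone gives about 1 in 20. Npy was 5.88 in Tg PND 42 SPF replicate 1, against 7.64 to 7.86 in the other 3 mice, and still above every WT mouse. Bex1 was 6.12 in WT PND 10 replicate 4, against 3.5 to 3.75 in the other 3 pools. Pmp22 was 8.99 in Tg PND 10 replicate 1, against 8.31 to 8.40. Anpep was 10.62 in Tg PND 10 replicate 4, against 10.73 to 10.75. Chst11 was 3.37 in WT PND 42 SPF replicate 4, against 2.77 to 2.86, all near background.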

How the results depend on the processing

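The Tg minus WT differences after PND 0 all moved by less than the spread between replicates (420 values), and none changed direction but those of Bex1 near 0, which lay between -0.108 and 0.034 at PND 3 and between -0.188 and 0.683 at PND 10 when 1 array was left out. Of the WT step values 415 did so too, and 5 moved by more, with another normalization or centring. Of 840 described values, the WT steps included, 22 changed sign, each in a step with a value between -0.57 and 0.10. The lowest of these steps was Bex1 from PND 10 to PND 42 in WT mice, at -0.57, and at 0.06 without WT PND 10 replicate 4. The counts of related genes moved more. The PND 0 count of 11 was 0 with the compared groups alone, 3 with array weights, 2 with weights by group variance and 3 with a 2-fold limit added. The PND 10 count of 4 was 7, 11, 7 and 2 under the same settings and 7 with a filter on dim features. The 2-fold limit gave 10 at PND 3, 11 in SPF and 14 in GF adults, and the GF count was 20 with the compared groups alone. Leaving out 1 array gave 3 to 25 related genes at PND 0, 2 (without WT PND 10 replicate 2) to 6 at PND 10 and 16 (without Tg GF replicate 3) to 27 in GF adults, where it was 19 without WT GF replicate 2. The cause was not tested, beyond the stricter limit and the smaller number of arrays. With a replicate block the counts of members called at PND 0 and for housing were 0, 0 and 0, as without it, and those of related genes 8, 19, 3, 23 and 26. Signal near background limits Npy, Chst11, Met and Bex1 in WT adults.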
